A study of Mus musculus with 152 samples.

Results

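Transcripts of 10 liver enzymes of methionine, choline and one-carbon metabolism (Mat1a, Gnmt, Bhmt, Bhmt2, Pemt, Ahcy, Cbs, Cth, Shmt1 and Etnppl) were followed in mouse liver. They were taken by gene symbol, and each symbol matched 1 of the 54532 Ensembl genes in the 7 expression tables. Mice of the inbred strain C57BL/6J were used, and from 8 weeks of age they were fed either LIDPAD, a diet designed to bring on non-alcoholic fatty liver disease, or a control diet, for 1, 4, 8, 12, 16, 32 or 48 weeks. No genotype, allele or drug distinguishes the 14 groups, and the labels give neither the sex of the mice nor the hour of collection. The 152 listed samples formed blocks of 4 that agreed within the noise of sampling reads in pairs, and the mean of each block was counted as 1 library. That left 38 libraries, 20 from LIDPAD and 18 from control livers. There were 2 libraries per diet at weeks 1, 4, 8 and 12, and 3 per diet at week 16. Week 32 had 5 LIDPAD and 4 control libraries, and week 48 had 4 LIDPAD and 3 control libraries. Nothing in the labels states that libraries came from separate animals, so the spread that p-values rest on is that of libraries and may be technical.

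Methionine is turned into S-adenosylmethionine, the methyl donor of most methylation reactions, and what remains after the methyl group is given away is hydrolysed to homocysteine. Homocysteine is either methylated back to methionine, with betaine (made from choline) or a folate as the source of the methyl group, or passed through cystathionine to cysteine in the transsulfuration pathway. The liver carries out much of the body's methionine metabolism, and hepatocytes also use S-adenosylmethionine to make phosphatidylcholine, a phospholipid needed for lipoprotein export.

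The libraries held 10.9 to 53.8 M reads (1 M is 1000000 reads), and the deposited values, in FPM, are whole read counts divided by 1 factor per column. Albumin (Alb), the main secreted protein of hepatocytes, was at 19315 FPM or more in every LIDPAD library and at 44853 FPM or more in every control library, so hepatocyte RNA was abundant in all 38. Some libraries stood apart from the rest of their group. Library 3 of the week 48 controls had 487 genes more than 4-fold away from the other controls of that week, libraries 1 and 2 of the week 32 LIDPAD group had 281 and 158 such genes, and the week 4 control libraries differed from each other in 121 genes. At week 32 the way reads were divided over the 4 columns separated the libraries into a first set (3 LIDPAD and 3 control) and a second set (2 LIDPAD and 1 control). Some of the results that rest on these libraries are also given without 1 of them or for the first set alone. No fit of week 32 left out its LIDPAD libraries 1 and 2 together.

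On GRCm38 all 10 genes are annotated as protein-coding. Mat1a lies at chr14:41105035-41124412 (+ strand), Gnmt at chr17:46725664-46729168 (-), Ahcy at chr2:155059310-155074497 (-), Pemt at chr11:59970614-60046489 (-) and Etnppl at chr3:130617448-130637521 (+). Cbs lies at chr17:31608894-31637238 (-), Cth at chr3:157894248-157925077 (-) and Shmt1 at chr11:60788104-60811718 (-). Bhmt (chr13:93616675-93637961, -) and Bhmt2 (chr13:93655720-93674302, -) are neighbours with 17758 bases between them, and Dmgdh, which demethylates the dimethylglycine that Bhmt leaves, begins 130 bases beyond Bhmt2. The reads of 2 members are uncertain because their exons recur elsewhere. For Ahcy, 68.7% of its exonic stretches of 50 bases also occur in other annotated genes (Gm4737, Gm9826 and Gm5638), and Gm4737 was itself counted at 94.7 to 317 FPM. For Bhmt the share was 26.1%, with Gm5096 at 34.1 to 345 FPM. The share was 0% for Mat1a, Gnmt, Cth and Etnppl and at most 6.32% for Bhmt2, Pemt, Cbs and Shmt1. The strand setting of the counting is not given in the sources used here, so reads of the antisense genes Gm15622 (over Bhmt) and Gm45609 (over Ahcy), and of Smcr8 where it overlaps Shmt1, cannot be told apart from these members. The lincRNA Gm26904, which overlaps Gnmt on the other strand, was counted at no more than 0.257 FPM.

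Gnmt and Etnppl had the largest decreases described below, and the 250 bases before their annotated starts are shown for that reason (RefSeq, GRCm38.p6, 5′ to 3′ on the gene's strand). The Gnmt window is chr17:46729166-46729415 (-) and the Etnppl window, of the first of its annotated starts, is chr3:130617198-130617447 (+). The table of promoters held 8 of the 10 members. Capitals mark the hexamer AGGTCA, which nuclear receptors bind, on either strand.
Gnmt: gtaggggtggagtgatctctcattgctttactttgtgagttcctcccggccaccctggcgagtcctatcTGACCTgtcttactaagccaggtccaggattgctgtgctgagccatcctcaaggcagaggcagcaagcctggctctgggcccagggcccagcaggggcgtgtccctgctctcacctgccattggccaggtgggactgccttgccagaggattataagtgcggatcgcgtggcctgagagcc
Etnppl: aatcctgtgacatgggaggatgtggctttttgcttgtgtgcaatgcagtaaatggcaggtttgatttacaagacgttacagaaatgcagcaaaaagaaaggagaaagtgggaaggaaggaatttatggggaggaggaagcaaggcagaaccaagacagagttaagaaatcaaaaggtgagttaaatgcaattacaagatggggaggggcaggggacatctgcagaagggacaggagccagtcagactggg
The Gnmt window holds 1 copy, on the opposite strand at position -181 from the start, and the Etnppl window holds none. Of 32851 mouse windows of this length, 14.0% hold AGGTCA on either strand. Neither window holds the E-box CACGTG or the sequence TATAAA on either strand, which 6.02% and 12.4% of the windows hold, and these motifs do not overlap each other. A match is a description of the letters and not a binding site.

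Transcripts of 8 of the 10 enzymes were lower in LIDPAD than in control livers in at least 1 week, the first of them Gnmt at week 8, and no member was called higher in any week, where 0.726, 0.121, 3.85, 8.99, 16.3, 18 and 6.54% of all genes were called higher at weeks 1 to 48. A gene was called when its Benjamini-Hochberg adjusted p in limma, over all genes tested that week, was under 0.05, and all 10 members passed the filter on low values in every week. At week 8 Gnmt alone was called lower, where 1.75% of all genes tested were called lower. At week 12 Gnmt, Cbs, Cth, Shmt1 and Etnppl were called lower, 5 of 10 members, where 6.25% of all genes were. At week 16 the count was 7 of 10, adding Bhmt2 and Pemt, against 12% of all genes. At week 32 it was 5 of 10 (Gnmt, Pemt, Ahcy, Cbs and Shmt1), against 8.82% of all genes, and at week 48 it was 4 of 10 (Gnmt, Pemt, Cth and Etnppl), against 3.34% of all genes.

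All 22 calls were of lower levels, and each kept its negative sign in every alternative fit. The counts rest on few libraries. At week 8 the count was 0 without LIDPAD library 1 or 2, where 0.188% and 0.145% of all genes were called lower. It was 4 without control library 1 and 5 without control library 2, where 3.32% and 5.53% were. At week 12 it was 3 without LIDPAD library 1 and 2 without LIDPAD library 2, where 3.65% and 2.48% were. At week 48 it was 8 without control library 3, with Bhmt2, Ahcy, Cbs and Shmt1 added, where 15.4% of all genes were called lower, and 2 (Cth and Etnppl) without any other single library. In those fits 0.8, 0.513, 0.459 and 0.561% of all genes were called lower without LIDPAD libraries 1, 2, 3 and 4, and 0.891 and 1.41% without control libraries 1 and 2. With all 7 weeks in 1 fit, which uses 1 estimate of the spread, limma called 0 members at week 8, 1 at week 12 (Pemt, and none of the 5 above), 5 at week 16, 6 at week 32 and 7 at week 48, where 0.0547, 0.76, 6.93, 16.1 and 5.01% of all genes were called lower. In the first set of libraries of week 32 the count was 4, without Gnmt, where 7.24% of all genes were called lower.

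At weeks 1 and 4 limma and edgeR each called 0 members. At an unadjusted p under 0.05, 3 members were lower at week 1 and 2 at week 4, where 8.53% and 4.91% of all genes were. The adjusted threshold was passed, lower, by 1.27% and 0.166% of all genes. Without LIDPAD library 1 Gnmt and Pemt were called at week 1, where 3.79% of all genes were then called lower. Without control library 2 Gnmt was called at week 4, where 0.849% of all genes were. The median log2 difference of the 10 members, LIDPAD minus control, was -0.089 at week 1, -0.21 at week 4, -0.34 at week 8, -0.56 at week 12, -0.53 at week 16, -0.57 at week 32 and -0.59 at week 48. The median over all genes tested lay between -0.0081 and 0.038 in every week. All log2 differences here are of log2(FPM + 0.5), given ± SE. The ranges of adjusted p over all alternatives, given below, include a fit with each of the 4 columns of a library as a sample. That fit takes columns of the same library as independent, so a low end that comes from it overstates the evidence. Mat1a and Bhmt were never called, and Gnmt was called in 5 of the 7 weeks, more than any other member.

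**Figure D1:**
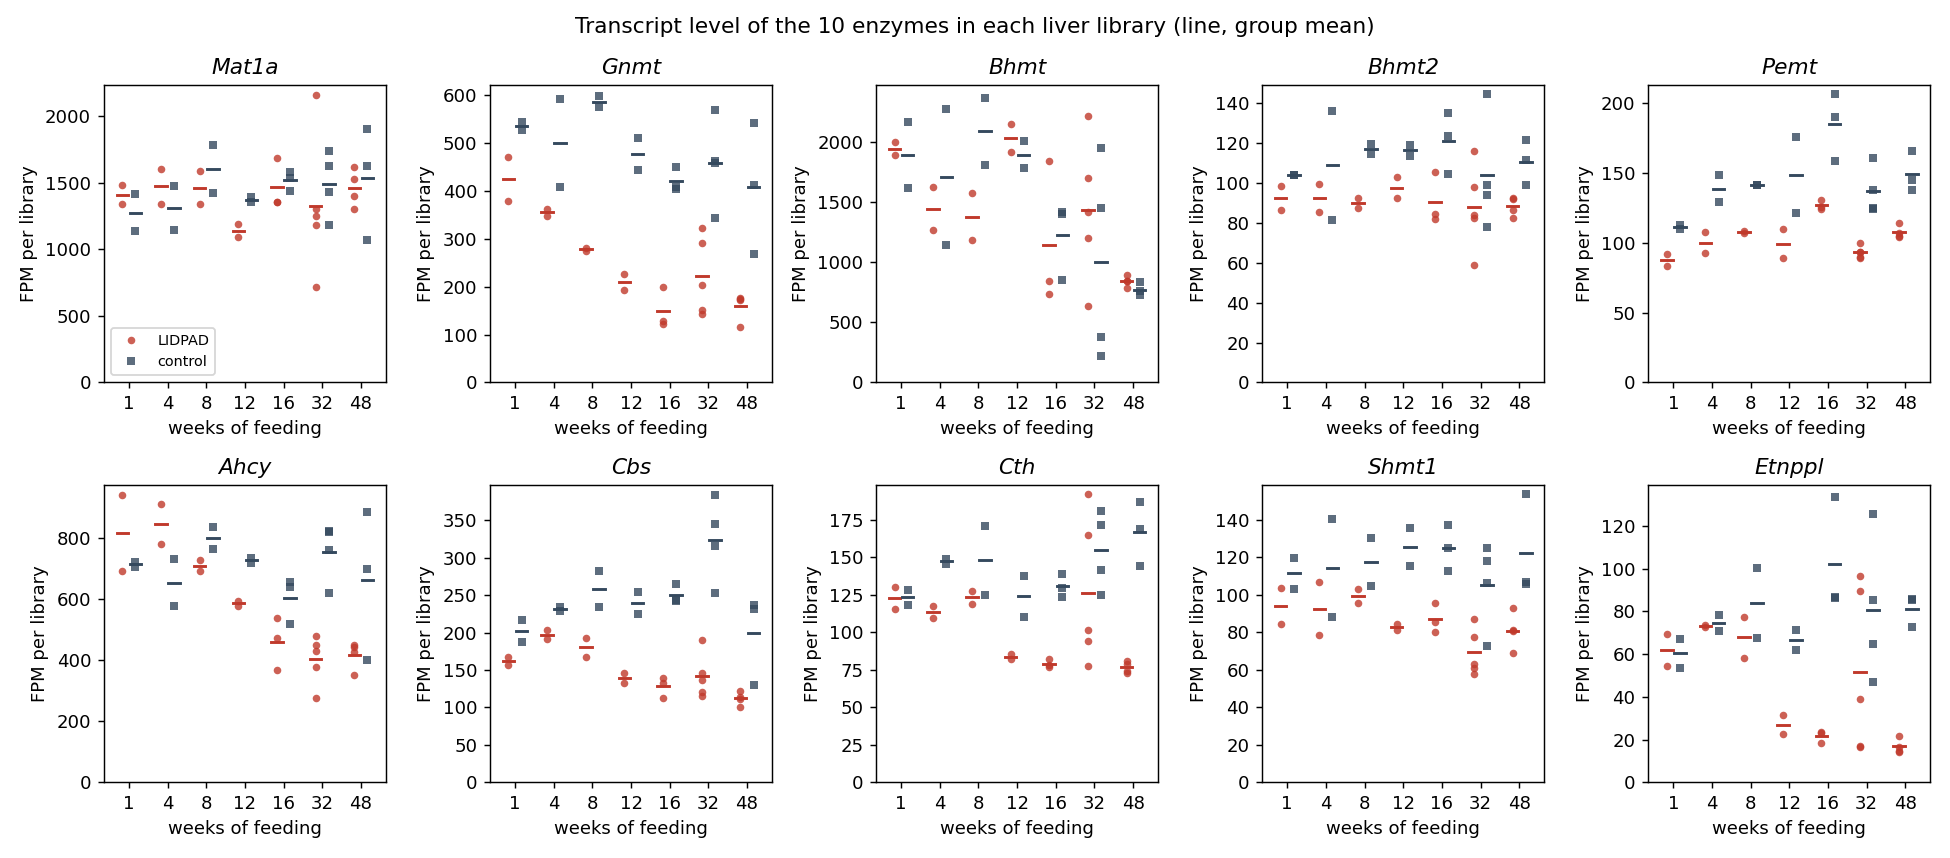
Level of each of the 10 enzyme transcripts (FPM, y axis from 0) in every liver library against weeks of feeding (x axis), LIDPAD as circles on the left and control as squares on the right of each week, with a line at the group mean. For Gnmt, Cbs and Pemt every LIDPAD library lies below every control library of its week, while the groups of Mat1a overlap in all weeks but week 12.

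Libraries of the 2 diets often did not overlap. All LIDPAD libraries lay below all control libraries for 4 members at week 1, 4 at week 4, 7 at week 8, 9 at week 12, 6 at week 16, 4 at week 32 and 7 at week 48. With so few libraries such separation is common: it held for 24.4, 20.9, 27.1, 28.2, 19.7, 8.8 and 10.7% of all genes tested in those weeks. Gnmt, Cbs and Pemt were the members whose LIDPAD libraries lay below the controls in each of the 7 weeks. Ahcy at week 4 was the only case of every LIDPAD library above every control library, which held for 21.3% of all genes that week.

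Transcripts that mark hepatocytes were also mostly at lower levels in LIDPAD livers after week 1. Fewer hepatocytes and less of a transcript per hepatocyte cannot be told apart in whole liver. Of 6 hepatocyte markers tested (Alb, Apoa1, Ttr, Serpina1a, Cps1 and Hnf4a), 0 were called lower by limma up to week 8, 1 at week 12, 5 at week 16, 4 at week 32 and 2 at week 48, and none was at 0 in any week. Of all genes, 6.25, 12, 8.82 and 3.34% were called lower at weeks 12, 16, 32 and 48. At week 1, 3 of the 6 markers had differences above 0 and 3 below. Over the LIDPAD libraries Alb had a median of 30300 FPM, against 2918 for Apoa1, 2207 for Ttr, 1767 for Cps1 and 294 for Hnf4a. A sum of the markers therefore mostly follows the most abundant of them. The summed level of the markers was lower in every LIDPAD library than in any control library of its week at weeks 1, 4, 8, 12, 16 and 48. At week 1 it was 49860.5 to 59530.0 FPM in LIDPAD livers, against 64546 to 66615 FPM in control livers, and at week 4 56478 to 61397 FPM in LIDPAD livers, against 67928 to 92881 FPM in control livers. At week 8 it was 56334 to 61017 FPM in LIDPAD livers, against 75580.3 to 85433 FPM in control livers, and at week 12 45522 to 50218 FPM in LIDPAD livers, against 75332 to 82989 FPM in control livers. At week 16 it was 35609 to 44115 FPM in LIDPAD livers, against 70965 to 85748 FPM in control livers. At week 48 it was 27049.8 to 37766 FPM in LIDPAD livers, against 64697 to 85846 FPM in control livers. At week 32 the sums overlapped, with 31332 to 108922 FPM in LIDPAD livers, against 82222 to 98824 FPM in control livers, the highest of all being LIDPAD library 1. The median log2 difference of the markers was -0.0031, -0.26, -0.40 and -0.62 at weeks 1, 4, 8 and 12, beside -0.089, -0.21, -0.34 and -0.56 for the 10 enzymes. It was -0.91 at week 16, -1.02 at week 32 and -0.94 at week 48, beside -0.53, -0.57 and -0.59 for the 10 enzymes.

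Markers of other cell types were called higher from week 8 on. Of all genes, 3.85, 8.99, 16.3, 18 and 6.54% were called higher at weeks 8, 12, 16, 32 and 48. Called lower in those weeks were 1.75, 6.25, 12, 8.82 and 3.34%, and 0.166% at week 4. Of 6 recruited macrophage markers (Gpnmb, Trem2, Itgax, Ccr2, Cd9 and Spp1), 4, 5, 6, 6 and 4 were called higher at weeks 8, 12, 16, 32 and 48, and their sum at week 16 was 182 to 261 FPM in LIDPAD livers, against 30.9 to 32.2 FPM in control livers. Stellate cell markers were called higher for 3, 5, 5, 4 and 6 of 6 in the same weeks. Kupffer cell markers were called higher for 2, 2, 3, 2 and 2 of 6 in those weeks, and 1 was called lower at weeks 4 and 48. Cholangiocyte markers were called higher for 2 of 3 tested at week 16 and 3 of 4 at week 32, and lymphocyte markers for 3 of 4 at week 48. Of 4 endothelial markers 1 was called lower at weeks 12 and 16 and 1 higher at week 32. Among 6 periportal hepatocyte markers, 3 were called lower at week 8, 3 at week 12, 5 at week 16, 1 at week 32 and 3 at week 48. Of the pericentral markers, 2 of 6 tested were called higher at week 12, and 1 of 5 higher and 1 of 5 lower at week 16. At week 32 limma called 0 of 5, all 5 with differences below 0, and at week 48 it called 1 of 6 higher. Their median log2 differences were 0.31, -0.18, -1.37 and 0.87 in those 4 weeks. The part of these cell and zone markers in the differences of the 10 enzymes was not tested.

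**Figure D2:**
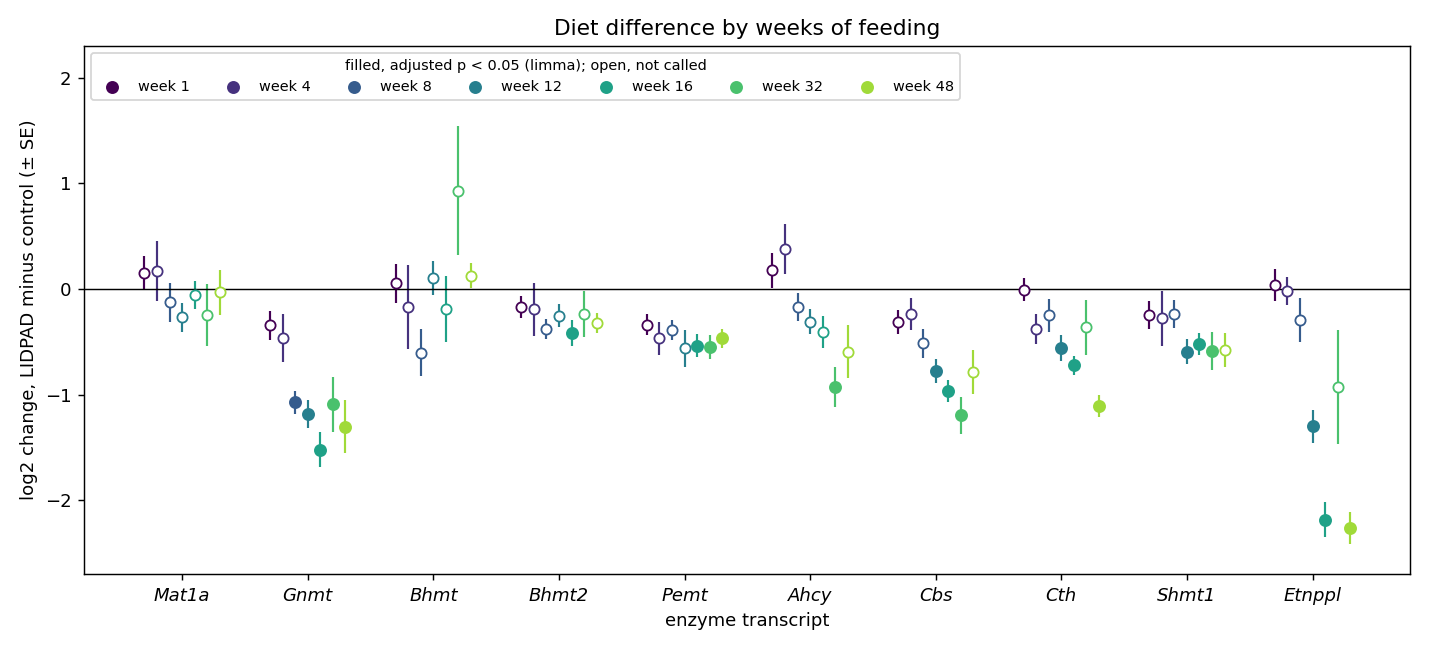
Log2 difference, LIDPAD minus control (y axis, ± SE from limma), of each enzyme transcript, with the 7 feeding durations side by side in order. Filled points passed an adjusted p of 0.05 and open points did not: all 22 filled points lie below 0, from -0.41 for Bhmt2 at week 16 to -2.26 for Etnppl at week 48.

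Mat1a was not called in any week. This gene, which encodes the catalytic subunit of the S-adenosylmethionine synthetase of adult liver, was the most abundant member per length, with a median of 389 FPM per kb in LIDPAD livers and 413 FPM per kb in control livers. Its LIDPAD minus control difference lay between -0.27 (week 12) and 0.17 (week 4) over the 7 weeks. At week 16 its libraries had 1357, 1684 and 1354 FPM in LIDPAD livers, against 1439.8, 1583 and 1535 FPM in control livers. At week 48 they had 1303, 1529.8, 1396 and 1617 FPM in LIDPAD livers, against 1623, 1899.9 and 1070.0 FPM in control livers. The groups overlapped in both weeks, and the week 48 difference of -0.032 ± 0.21 (adjusted p = 0.945) changed sign under quantile normalization, where it was 0.55 with an adjusted p of 0.0485 (range over all alternatives 0.0485 to 0.985). The widest spread was at week 32, with 2160.3, 1300.2, 716, 1246 and 1183 FPM in LIDPAD livers, against 1735, 1182, 1426 and 1627 FPM in control livers.

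Gnmt, glycine N-methyltransferase, spends S-adenosylmethionine by methylating glycine to sarcosine and is one of the abundant proteins of liver cytosol. It was the member called in the most weeks. At week 1 it had 471 and 379 FPM in LIDPAD livers, against 528 and 545 FPM in control livers. At week 4 the values were 348 and 363 FPM in LIDPAD livers, against 591 and 408 FPM in control livers. The LIDPAD libraries were lower in both weeks, but the differences of -0.34 ± 0.14 (adjusted p = 0.288) and -0.47 ± 0.23 (adjusted p = 0.532) did not pass the threshold. At week 8 Gnmt had 281 and 275 FPM in LIDPAD livers, against 575 and 597 FPM in control livers, a difference of -1.07 ± 0.11 with an adjusted p of 0.00589. At week 12 it had 226 and 193 FPM in LIDPAD livers, against 443 and 509 FPM in control livers, and the difference was -1.18 ± 0.13, adjusted p = 0.000743. No LIDPAD library exceeded 281 FPM in these weeks and no control was under 443 FPM. The call at week 8 was lost without either LIDPAD library, with an adjusted p of up to 0.0969 (range over all alternatives 8.13e-17 to 0.185). The week 12 call held without any 1 library and was lost in the fit of all weeks, with an adjusted p of 0.0549 (range over all alternatives 5.21e-16 to 0.0549).

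The largest Gnmt difference was at week 16, where the libraries had 122, 199 and 129 FPM in LIDPAD livers, against 403, 450.1 and 409 FPM in control livers. That is -1.52 ± 0.16, adjusted p = 7.08e-05, or 0.349 times the control level. The highest LIDPAD library, 199 FPM, was still below the lowest control, and the call held without any 1 library and in every other alternative fit run at that week. At week 32 the values were 323, 291, 144, 204 and 152 FPM in LIDPAD livers, against 458, 343, 568 and 462 FPM in control livers (-1.09 ± 0.26, adjusted p = 0.00973). The first 2 LIDPAD libraries, which also stood apart over all genes, were the highest of their group. In the first set of libraries alone the difference was -0.91 with an adjusted p of 0.0860, no longer called (range over all alternatives 2.02e-09 to 0.0860), and in the second set, which has 1 control and no test, it was -1.39.

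At week 48 Gnmt had 116, 175, 177 and 173 FPM in LIDPAD livers, against 542, 412 and 268 FPM in control livers, a difference of -1.31 ± 0.25, adjusted p = 0.0215. All 4 LIDPAD libraries were below all 3 controls, and the lowest control was library 3, the one that stood apart. The call was lost when any 1 of the other 6 libraries was left out, with an adjusted p of up to 0.0668, and was 5.61e-05 without control library 3 (range over all alternatives 7.05e-10 to 0.140). Per length, Gnmt was at a median of 167 FPM per kb in LIDPAD livers and 381 FPM per kb in control livers over all weeks, where Mat1a was at 389 FPM per kb in LIDPAD livers and 413 FPM per kb in control livers.

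Pemt makes phosphatidylcholine by successive methylation of phosphatidylethanolamine and is, like Gnmt, a large consumer of S-adenosylmethionine. Its difference varied little, between -0.56 and -0.34 over the 7 weeks, and its LIDPAD libraries lay below its controls in all of them. It was first called at week 16, where it had 131, 126 and 124 FPM in LIDPAD livers, against 190.0, 207 and 159 FPM in control livers (-0.54 ± 0.11, adjusted p = 0.00349). At week 32 it had 90.3, 99.6, 93.7, 89.5 and 93.8 FPM in LIDPAD livers, against 138, 125, 161 and 125 FPM in control livers (-0.55 ± 0.11, adjusted p = 0.00468). The 5 LIDPAD libraries at week 32 ran only between 89.5 and 99.6 FPM, and the first set of libraries alone gave -0.57 (adjusted p = 0.0291, range over all alternatives 4.05e-11 to 0.230). At week 48 the values were 105, 105, 107 and 115 FPM in LIDPAD livers, against 166, 145 and 138 FPM in control livers (-0.47 ± 0.092, adjusted p = 0.0226). That call, like the one for Gnmt, was lost when any 1 library other than control library 3 was left out, with an adjusted p of up to 0.0772 (range over all alternatives 2.36e-09 to 0.154).

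Ahcy, S-adenosylhomocysteine hydrolase, clears the product left when a methyl group has been given away. Its LIDPAD libraries were not lower at the start. At week 4 Ahcy had 780.2 and 910.4 FPM in LIDPAD livers, against 729.7 and 575 FPM in control livers (0.38 ± 0.24, adjusted p = 0.627), the LIDPAD libraries being the higher ones. At week 16 it had 366, 537 and 473 FPM in LIDPAD livers, against 655, 637 and 518 FPM in control livers, with overlapping groups and a difference of -0.41 ± 0.15, adjusted p = 0.0671. At week 32 the values were 479, 429.7, 274, 450.4 and 377 FPM in LIDPAD livers, against 820.4, 619, 819 and 759 FPM in control livers. No LIDPAD library reached the lowest control at week 32, the difference was -0.92 ± 0.19, adjusted p = 0.00456, and it was called without any 1 library and in the first set alone (-0.96, adjusted p = 0.0317, range over all alternatives 3.57e-12 to 0.117). At week 48 Ahcy had 351, 450.4, 427 and 441 FPM in LIDPAD livers, against 696, 885 and 401 FPM in control livers (-0.59 ± 0.25, adjusted p = 0.174). Control library 3 was the only control within the LIDPAD range there, and without it the difference was -0.92 with an adjusted p of 0.000287 (range over all alternatives 0.000238 to 0.419). Because of its near copies, the Ahcy values may hold reads of other loci.

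Neither direction was called for the betaine-dependent return of homocysteine to methionine. Bhmt, betaine-homocysteine methyltransferase, carries it out, and its log2 difference lay between -0.60 (week 8) and 0.93 (week 32). At week 32 it had 2217, 1422, 639, 1703 and 1199 FPM in LIDPAD livers, against 381, 218, 1952 and 1455 FPM in control livers. The control libraries spanned a wider range than the LIDPAD libraries, with 2 controls far below the other 2, and the difference of 0.93 ± 0.61 had an adjusted p of 0.294. At week 48 it had 784, 846, 893 and 846 FPM in LIDPAD livers, against 759, 833 and 724 FPM in control livers (0.13 ± 0.11, adjusted p = 0.538), and there it was called higher when each library was rescaled to the same total (0.41, adjusted p = 0.0390, range over all alternatives 0.0145 to 0.906). Bhmt2, its neighbour, uses S-methylmethionine as the methyl donor and had a negative difference in all 7 weeks, between -0.41 and -0.17. It was called at week 16 alone, with 84.5, 105 and 82.0 FPM in LIDPAD livers, against 135, 104 and 123 FPM in control livers (-0.41 ± 0.12, adjusted p = 0.0288). The 2 groups overlapped by 1 library, and the call was lost when any 1 of 4 libraries was left out, with an adjusted p of up to 0.117 (range over all alternatives 3.08e-06 to 0.203).

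Both enzymes of transsulfuration were called lower in LIDPAD livers at weeks 12 and 16, then Cbs alone at week 32 and Cth alone at week 48. Cbs, cystathionine beta-synthase, joins homocysteine and serine, the step that commits homocysteine to cysteine. At week 12 it had 146 and 132 FPM in LIDPAD livers, against 225 and 254 FPM in control livers (-0.78 ± 0.11, adjusted p = 0.00288). At week 16 it had 133, 112 and 139 FPM in LIDPAD livers, against 265, 242 and 243 FPM in control livers (-0.97 ± 0.10, adjusted p = 7.17e-05). At week 32 it had 189.8, 121, 116, 146 and 136 FPM in LIDPAD livers, against 345, 384, 315 and 253 FPM in control livers. The highest LIDPAD library at week 32, library 1, was still below the lowest control, and the difference of -1.20 ± 0.17 (adjusted p = 0.000696) was the largest of Cbs in any week. Cbs was called in every alternative fit run at weeks 16 and 32, as were Gnmt, Pemt, Cth and Etnppl at week 16 and Etnppl at week 48. At week 12 its call was lost without LIDPAD library 2 (adjusted p = 0.0566, range over all alternatives 5.1e-13 to 0.0650). At week 48 Cbs had 100.2, 114, 111 and 123 FPM in LIDPAD livers, against 232, 237 and 131 FPM in control livers, and the difference of -0.79 ± 0.21 did not pass (adjusted p = 0.0508). Control library 3 was the lowest control, and without it the difference was -1.07 with an adjusted p of 9.21e-06 (range over all alternatives 3.16e-07 to 0.163).

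Cth, cystathionine gamma-lyase, releases cysteine from cystathionine. At week 1 it had 129.97 and 116 FPM in LIDPAD livers, against 118 and 128 FPM in control livers, a difference of -0.0073 ± 0.11, adjusted p = 0.982. At week 12 it had 81.9 and 85.3 FPM in LIDPAD livers, against 138 and 110.4 FPM in control livers (-0.56 ± 0.13, adjusted p = 0.0193), and at week 16 76.8, 82.3 and 78.1 FPM in LIDPAD livers, against 129, 139 and 124 FPM in control livers (-0.72 ± 0.089, adjusted p = 0.000170). The 3 LIDPAD libraries of week 16 ran only between 76.8 and 82.3 FPM. The week 12 call was lost without either LIDPAD library, with an adjusted p of up to 0.131 (range over all alternatives 2.5e-08 to 0.308). At week 48 Cth had 72.7, 78.8, 74.1 and 80.7 FPM in LIDPAD livers, against 144, 169 and 187 FPM in control livers, and the difference of -1.11 ± 0.10, adjusted p = 0.00254 was its largest. The highest LIDPAD library was 80.7 FPM there and the lowest control 144 FPM, and the call held when any 1 library was left out (range over all alternatives 2.62e-17 to 0.0932). At week 32 Cth was not called (-0.36 ± 0.26, adjusted p = 0.331), with 165, 192, 102, 94.2 and 77.5 FPM in LIDPAD livers, against 171, 125, 181 and 141 FPM in control livers.

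Shmt1, the cytosolic serine hydroxymethyltransferase, exchanges serine and glycine while loading a one-carbon unit onto folate. It was called lower at weeks 12, 16 and 32. At week 12 it had 84.4 and 81.0 FPM in LIDPAD livers, against 136 and 115 FPM in control livers (-0.59 ± 0.12, adjusted p = 0.0101). At week 16 it had 85.5, 95.4 and 80.0 FPM in LIDPAD livers, against 137, 125 and 113 FPM in control livers (-0.52 ± 0.11, adjusted p = 0.00374). At week 32 it had 61.1, 63.3, 57.8, 86.9 and 77.2 FPM in LIDPAD livers, against 125, 72.9, 118 and 106 FPM in control livers (-0.59 ± 0.18, adjusted p = 0.0318). The groups were apart at weeks 12 and 16 and overlapped at week 32 through control library 2. Leaving out either LIDPAD library at week 12, or any of 6 single libraries at week 32, ended the call, with adjusted p of up to 0.127 and 0.0964 (ranges over all alternatives 1.09e-09 to 0.222 and 7.92e-07 to 0.249). At week 48 the mean was 80.9 ± 9.96 FPM in LIDPAD livers and 122 ± 27.6 FPM in control livers (SD, n = 4 and 3), and limma gave -0.58 ± 0.16, adjusted p = 0.0580.

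Etnppl, ethanolamine-phosphate phospho-lyase, breaks down phosphoethanolamine, a precursor of phosphatidylethanolamine, and was the least abundant member per length, at a median of 3.32 FPM per kb in LIDPAD livers and 9.13 FPM per kb in control livers. It showed the largest decreases of the 10. At week 4 it had 72.9 and 73.7 FPM in LIDPAD livers, against 78.1 and 70.7 FPM in control livers. At week 8 it had 77.4 and 58.3 FPM in LIDPAD livers, against 67.8 and 100.4 FPM in control livers. The groups overlapped at both times and at week 1, where the difference was 0.037 ± 0.15. At week 12 the libraries had 31.3 and 22.8 FPM in LIDPAD livers, against 71.4 and 61.9 FPM in control livers (-1.30 ± 0.16, adjusted p = 0.00115). At week 16 they had 23.3, 18.5 and 23.6 FPM in LIDPAD livers, against 86.4, 133 and 86.8 FPM in control livers (-2.18 ± 0.17, adjusted p = 9.17e-06). The week 16 LIDPAD level was 0.220 times the control level. At week 48 they had 14.7, 21.5, 16.6 and 14.2 FPM in LIDPAD livers, against 72.7, 85.2 and 86.0 FPM in control livers (-2.26 ± 0.15, adjusted p = 0.000641), 0.209 times the control level. In weeks 12, 16 and 48 no LIDPAD library reached the lowest control, and the call held without any 1 library in each of these weeks. In the fit of all weeks the week 12 call was lost (adjusted p = 0.245, range over all alternatives 1.55e-12 to 0.245).

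Neither Etnppl nor Cth was called at week 32. Etnppl had 89.5, 96.6, 39.2, 17.2 and 16.4 FPM in LIDPAD livers, against 125, 64.8, 85.5 and 46.9 FPM in control livers, and the difference of -0.92 ± 0.54 did not pass (adjusted p = 0.236). LIDPAD libraries 1 and 2 were within the control range and libraries 3, 4 and 5 below it. In the first set of libraries the means were 75.1 FPM in LIDPAD and 91.9 FPM in control livers (-0.34, adjusted p = 0.556, range over all alternatives 0.00606 to 0.556), and in the second set 16.8 FPM in LIDPAD and 46.9 FPM in control livers (-1.46, with 1 control and no test). For Cth the difference was -0.087 in the first set and -0.72 in the second. LIDPAD libraries 1 to 5 of week 32 had 10.9, 15.4, 15.1, 28.4 and 30.2 M reads. Mitochondrial ribosomal RNA took 25.5, 30.2, 20.9, 26.5 and 26.5% of them, and Alb took 9.50, 2.12, 3.91, 2.75 and 2.67%. The part of depth or of RNA make-up in these values was not tested.

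Across the 38 libraries Etnppl and Cth had the highest correlation of any pair of members. After the control mean of the week was subtracted from each log2 value, Pearson's r between them was 0.93 over 38 libraries, 0.93 over the 29 libraries outside week 32, 0.91 over the 20 LIDPAD libraries and 0.71 over the 18 control libraries. These values describe the points only, since libraries of a week share their control mean. The LIDPAD libraries 1 and 2 of week 32 were high for both transcripts and libraries 4 and 5 low for both. Gnmt and Cbs had an r of 0.84 over all libraries and 0.58 over the LIDPAD libraries, and Pemt and Shmt1 0.83 and 0.57.

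**Figure D3:**
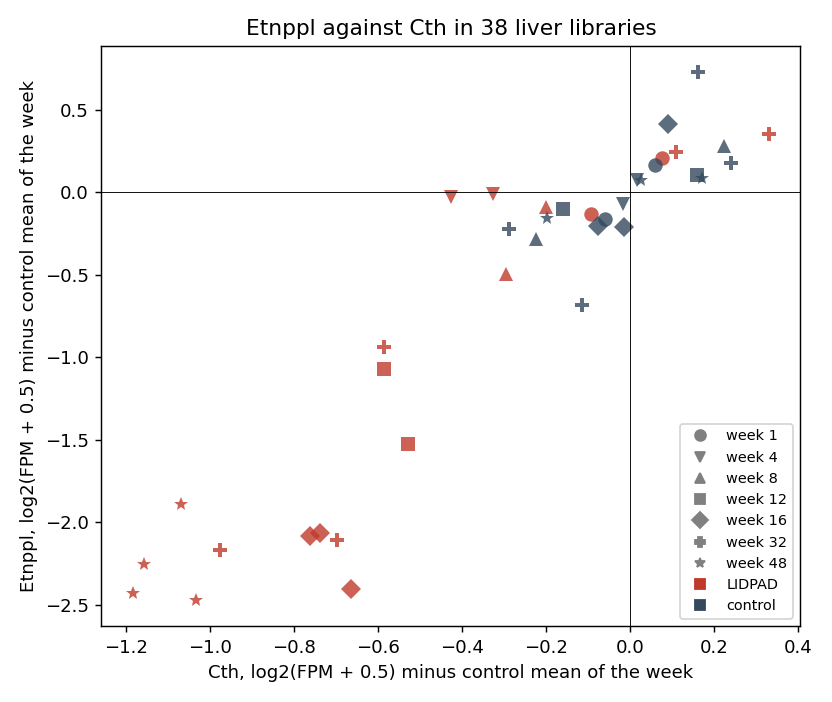
Etnppl (y axis) against Cth (x axis), each as log2(FPM + 0.5) minus the control mean of the week, 1 point per library with the shape giving the week and red for LIDPAD, blue for control. LIDPAD libraries of weeks 12, 16 and 48 and 3 of week 32 lie low on both axes, and 2 LIDPAD libraries of week 32 lie among the controls at the upper right.

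Over all genes, those most like each member called in at least 3 weeks were found by the same r over 38 libraries. For Gnmt they were Hgfac (0.97), the folate enzyme Aldh1l1 (0.96) and coagulation factor F7 (0.95). For Etnppl they were Hal, the first enzyme of histidine breakdown, at 0.93, Cth at 0.93 and Tiam2 at 0.89. Cth was most like Etnppl, the heparin cofactor Serpind1 (0.91) and the sulfide oxidase Sqor (0.91). Cbs was most like Gm36264 (0.97), Afm (0.95) and Ceacam1 (0.94), Pemt like Serpinc1 (0.91), Atp5g1 (0.90) and Ndufa6 (0.90), and Shmt1 like Fbxo8 (0.93), Timd2 (0.92) and Ndufa6 (0.91).

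Whether the diet difference itself changed with time was tested in a joint limma fit of the 14 groups. Weeks also differed in how reads were divided over the 4 columns of a library. In LIDPAD library 1 of weeks 1, 16 and 48 the third column held 25.3, 27.6 and 24.0% of reads. Duration of feeding cannot be told apart from this division or from the age of the mice. By an F test of the differences from week 1, 2 of the 10 members were called, Etnppl (adjusted p = 0.0384) and Ahcy (adjusted p = 0.0446), where 10.7% of 16439 genes were. Etnppl had within-week differences of 0.037 at week 1 and -2.26 at week 48, and Ahcy had 0.38 at week 4 and -0.92 at week 32. Both calls were lost when libraries were rescaled to the same total, and leaving out single libraries gave 0 to 3 called members. Etnppl was lost without any 1 of 18 of the 38 libraries, with an adjusted p of up to 0.0755, and the call of Ahcy was lost in the absence of any 1 of 27, with an adjusted p of up to 0.121. Without week 32 the members called were Etnppl and Cth. For Gnmt, with a negative difference in all 7 weeks, the F test gave an adjusted p of 0.251. Between week 16 and week 1, week 48 and week 1, and week 48 and week 16, limma called 0 members, where 0, 0.0122 and 0.0365% of all genes were called. At an unadjusted p under 0.05 there were 4, 4 and 0 members, where 9.13%, 9.51% and 7.55% of all genes were. The largest of these contrasts was Etnppl, week 48 minus week 1, at -2.30 ± 0.67 with an adjusted p of 0.255.

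The rest of the pathway was read from 8 lists holding 93 other genes, of which 92 matched a single gene. At week 16, 15 of 89 tested genes were called higher and 23 lower, where 16.3% and 12% of all genes were. The counts were 6 higher and 7 lower of 86 at week 8, 10 and 13 of 86 at week 12, 11 and 16 of 88 at week 32, and 4 and 12 of 89 at week 48. Of all genes, 3.85, 8.99, 18 and 6.54% were called higher in those 4 weeks. Called lower were 1.75, 6.25, 8.82 and 3.34%. At week 1 limma called 1 of 84, lower, and at week 4 0 of 85, where 1.27% and 0.166% of all genes were called lower. Without control library 3 the week 48 counts were 10 higher and 36 lower, where 22.3% and 15.4% of all genes were. In the first set of libraries the week 32 counts were 6 and 11, where 15.8% and 7.24% were. The fit of all weeks called 0 of these genes at week 8 and 3 at week 12, all higher, where 0.109% and 0.706% of all genes were called higher. In each list the 2 genes called in the most weeks are described, 16 in all. They were called 53 times over the 7 weeks, a number that follows in part from this choice. Of these calls 26 held without any 1 library and 15 under every other setting. All 53 kept their sign in every alternative fit.

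Around the methionine cycle (8 genes), 1 was called higher and 2 lower at week 16. Mat2a, the S-adenosylmethionine synthetase subunit of most tissues other than adult liver, rose at weeks 8, 12, 16 and 48. It ran at 77.5 to 80.1 FPM in LIDPAD livers, against 53.2 to 62.2 FPM in control livers at week 16 (0.46 ± 0.092, adjusted p = 0.00336) and at 83.2 to 87.2 FPM in LIDPAD livers, against 62.2 to 72.6 FPM in control livers at week 48 (0.37 ± 0.083, adjusted p = 0.0322), with no overlap in either week. The week 48 call was lost without any 1 of 5 libraries (range over all alternatives 9.01e-08 to 0.191). Adk, which removes the adenosine that Ahcy produces, was lower at week 16 alone (-0.41 ± 0.10, adjusted p = 0.00970), a call that was lost without LIDPAD library 3 and when libraries were rescaled to the same total (adjusted p of up to 0.132 over all alternatives). Of 8 choline and betaine genes, 1 was called higher and 4 lower at week 16. Pipox, a peroxisomal oxidase of sarcosine, the product of Gnmt, fell in 4 weeks and ran at 65.9 to 80.9 FPM in LIDPAD livers, against 147 to 171 FPM in control livers at week 16 (-1.12 ± 0.10, adjusted p = 2.83e-05). The betaine transporter Slc6a12 fell in 3 weeks and its week 16 difference was -0.76 ± 0.11, adjusted p = 0.000606. Without 1 library, the week 48 call of Pipox held in 1 of 7 fits and the week 32 call of Slc6a12 in 2 of 9.

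Among 16 folate genes, 3 were called higher and 5 lower at week 16. Aldh1l1, which oxidises formyl-folate, fell in 5 weeks, as Gnmt did, and ran at 283 to 365 FPM in LIDPAD livers, against 671 to 696 FPM in control livers at week 16 (-1.10 ± 0.11, adjusted p = 5.49e-05). Its week 32 call held in 4 of 9 fits without 1 library, and its week 48 call in 1 of 7. Mthfd1l, the mitochondrial enzyme that releases formate, rose in 4 weeks at low levels, 2.63 to 3.43 FPM in LIDPAD livers, against 0.485 to 0.657 FPM in control livers at week 12 (1.72 ± 0.22, adjusted p = 0.00167), and was under the filter at weeks 1 and 4. Of the glycine genes, 0 of 10 tested were called higher and 3 lower at week 16. Agxt, which makes glycine from glyoxylate, fell in 4 weeks, with 25.3 to 35.8 FPM in LIDPAD livers, against 88.5 to 121 FPM in control livers at week 16 (-1.76 ± 0.14, adjusted p = 1.42e-05). Gldc, of the glycine cleavage system, fell in 3 weeks, and at week 48 ran at 27.4 to 32.8 FPM in LIDPAD livers, against 91.1 to 158 FPM in control livers (-1.89 ± 0.18, adjusted p = 0.00281).

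Of 12 transsulfuration and sulfur genes tested, 2 were called higher and 5 lower at week 16. Cdo1, which oxidises cysteine, fell at weeks 12, 16 and 32 and had 459 to 612 FPM in LIDPAD livers, against 831 to 960.4 FPM in control livers at week 16 (-0.82 ± 0.13, adjusted p = 0.000921). Its week 12 call held in 2 of 4 fits without 1 library, and its week 32 call in 2 of 9. Got1, the cytosolic aspartate aminotransferase, which also acts on cysteine sulfinate, fell at weeks 8, 12 and 16. The fall was largest at week 8 (35.1 to 36.3 FPM in LIDPAD livers, against 109 to 166 FPM in control livers, -1.90 ± 0.19, adjusted p = 0.00532). In the limma fit of all weeks each of these calls was lost, with adjusted p of 0.0621, 0.114 and 0.0992. Phospholipid genes gave 2 higher and 2 lower of 12 at week 16. Chpt1, which makes phosphatidylcholine from CDP-choline without methylation, rose at weeks 8, 12 and 16 and had 260.2 to 264 FPM in LIDPAD livers, against 107 to 134 FPM in control livers at week 12 (1.12 ± 0.13, adjusted p = 0.000884). Its calls at weeks 8, 12 and 16 were all lost in the fit of all weeks. Pcyt2, which activates phosphoethanolamine, fell at weeks 1, 16 and 32, with -0.75 ± 0.15, adjusted p = 0.00395 at week 32. Its week 1 call was lost in the fit of all weeks. The calls at weeks 16 and 32 were lost when libraries were rescaled to the same total, and the week 16 call also under quantile normalization.

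Other methyl acceptors gave 3 higher and 2 lower of 12 at week 16. Hnmt, which methylates histamine, rose at weeks 8, 12, 16 and 48 (0.72 ± 0.094, adjusted p = 0.000252 at week 16). Gamt, which uses S-adenosylmethionine in the last step of creatine synthesis, fell at weeks 8, 12 and 16 (-0.70 ± 0.15, adjusted p = 0.00499 at week 16). The week 48 call of Hnmt held in 1 of 7 fits without 1 library, and the week 8 call of Gamt under 3 of 10 other settings. Methionine salvage and polyamine genes gave 3 higher and 0 lower of 11 at week 16. Sat1, which acetylates polyamines, rose at weeks 12, 16 and 32 (58.7 to 98.7 FPM in LIDPAD livers, against 24.9 to 45.2 FPM in control livers at week 32, 1.22 ± 0.20, adjusted p = 0.00127), and the aminotransferase Tat fell at weeks 8, 12 and 48 (-1.19 ± 0.10, adjusted p = 0.00154 at week 48).

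**Figure D4:**
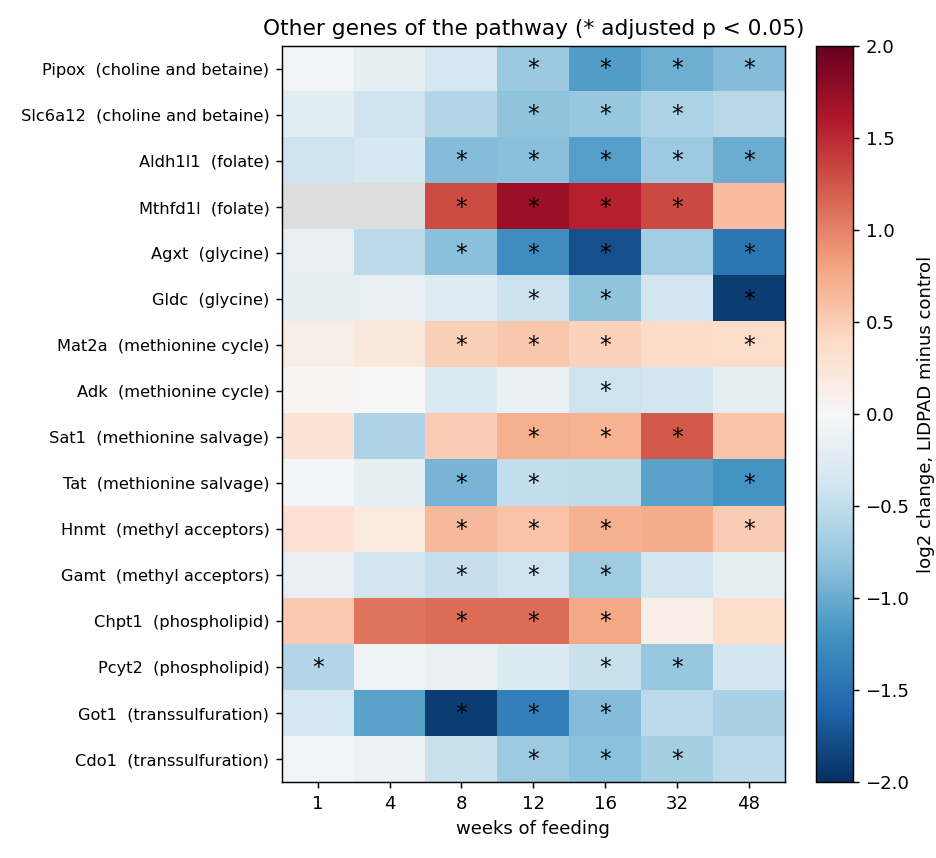
Log2 difference, LIDPAD minus control (colour, red above and blue below 0, cut at 2), of the 16 other pathway genes described, by weeks of feeding (x axis), with their list in brackets. Stars mark an adjusted p under 0.05 in limma and grey cells were under the filter: Mat2a, Mthfd1l, Sat1, Hnmt and Chpt1 carry stars on red, the other 11 on blue.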

How the data were processed

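RNA was extracted from liver with TRIzol and a column, and libraries were prepared by a company, per the labels' protocols. HISAT2, featureCounts, DESeq2 and the build GRCm38 are named in the submitters' processing notes, without roles or versions. The deposited values are a signal in FPM, 1 table per week, in which 100% of values were whole reads (tolerance 0.02 reads) times 1 factor per column. Depth therefore is known, at 10.9 to 53.8 M reads per library (median 29.0 M). Library totals ran between 754377 and 1286288 FPM.

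Columns within a block of 4 had a chi-square per gene of 1.98 to 2.27, against at least 2.54 between blocks, and each block was averaged. The closest blocks were LIDPAD libraries 4 and 5 of week 32. Within each week, limma 3.58.1 (eBayes with trend, R 4.3.3) was run on log2(FPM + 0.5). A gene was tested if it had 1 FPM or more in a number of libraries equal to the smaller group's size, with Benjamini-Hochberg adjustment over all such genes and a threshold of 0.05. Differences between weeks came from 1 limma fit of the 14 group means, since the weeks were normalized in separate tables. The alternatives were pseudocounts of 0.1 and 1, no filter or one of 5 FPM, rescaling of each library to 1000000 FPM, quantile normalization, the edgeR 4.0.16 quasi-likelihood test on recovered reads (which called 265, 40, 670, 2073, 3948, 3862 and 1181 genes at weeks 1, 4, 8, 12, 16, 32 and 48, against 250, 38, 743, 2078, 3928, 3810 and 1462 by limma), the joint fit, a replicate block, each library left out, and each column as a sample. Fits by set of week 32 libraries, with LIDPAD libraries 4 and 5 averaged, and without week 32 were chosen after seeing the data. The tests were tried on simulated data.

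The 10 members and all lists were chosen with earlier results of these data known. Named pathway genes are, in each list, the 2 called in the most weeks (ties by the largest median log2 difference), and genes of like pattern the 3 with the highest r. Symbols were found for 54409 of 54532 genes, and a symbol with more than 1 gene ID was left out. Gene positions are from the GRCm38 annotation and promoters from RefSeq.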

Additional observations from a re-analysis of the deposited data

Results flagged for a closer look

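At week 48 the Gnmt level of LIDPAD library 1, 115.847 FPM, lay far below the other 3 LIDPAD libraries of that week, which had 173 to 177 FPM. It was 1 of 30 groups of 4 or 5 libraries examined in this way, and chance alone sets about 1 in 20 groups apart. The joint limma F test of a change in the LIDPAD minus control difference between weeks called Etnppl, with an adjusted p of 0.0384116, and Ahcy, with an adjusted p of 0.0445527. The same test called 10.7% of 16439 genes. The Ahcy reads are shared with near copies of the gene, and both calls depended on single libraries and on the scaling. Duration cannot be told apart there from the age of the mice or from how reads were divided over columns.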

How the results depend on the processing

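All 22 calls kept their negative sign in every alternative; 14 were kept whichever library was left out and 7 under every other setting. Leaving out 1 library gave 6 to 8 called members at week 16, 4 to 5 at week 32 and 2 to 8 at week 48. Of all genes, 2810 to 4058, 2988 to 3629 and 134 to 5714 were called in those fits, which tested 13904 to 15153 genes. At weeks 1, 4, 8 and 12 such a fit leaves 1 library in a group, and its counts are left out of this list. The test between weeks then called 0 to 3 members, where 10.7% of 16439 genes were called with all libraries. With each column as a sample, which takes 4 runs of a library as independent, the counts were 5, 5, 9, 9, 8 and 9 at weeks 1, 4, 8, 12, 32 and 48, where 22.9, 22.6, 37.3, 40.1, 52.7 and 39% of all genes were called. In the joint fit they were 0 at week 8, 1 at week 12 and 7 at week 48. Quantile normalization left 1 call at week 32 (Cbs), where it called 1756 of 14187 genes lower, against 1251 without it. It reversed Mat1a at week 48, with 0.55 against -0.032. Rescaling to the same total left 3 at week 32 and 0 in the test between weeks. It gave 4 at week 48, of which Bhmt was higher. After rescaling, 362 of 14334 genes were called lower at week 32 and 190 of 14940 at week 48. The cause of these changes was not tested. Rescaling moved the median log2 difference of all genes by 0.11, 0.19, 0.20, 0.29 and 0.26 at weeks 8, 12, 16, 32 and 48, and the lower calls were then 15.5, 17.3, 16.9, 8.17 and 6.19% of all calls, against 31.2, 41.0, 42.4, 32.8 and 33.8% on the deposited scale. The replicate block left 3 calls at week 32 and 1 at week 48 (Etnppl), where 834 of 14187 and 13 of 14807 genes were called lower. It otherwise kept the counts within 1.5 times. Same-numbered libraries had correlations of -0.12 to 0.12 after group means were removed, so the numbers were not taken as pairs. The lowest level of any member in any library was 14.2 FPM (Etnppl, week 48), above every filter used.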

Other observations

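Several other genes of the same pathways were called in 3 weeks and are described here after their values were seen. Mthfd1, the trifunctional folate enzyme, fell at weeks 12, 16 and 32, with 85.7 to 110.3 FPM in LIDPAD livers, against 145 to 167 FPM in control livers at week 16 (limma, -0.72 ± 0.11, adjusted p = 0.000718). Ftcd, which passes the one-carbon unit of histidine to folate, fell at weeks 16, 32 and 48, with 87.4 to 101 FPM in LIDPAD livers, against 157 to 188 FPM in control livers at week 48 (-0.81 ± 0.10, adjusted p = 0.00738). Ggh, which trims the glutamate tail of folates, rose at weeks 16, 32 and 48, with 8.56 to 13.2 FPM in LIDPAD livers, against 5.61 to 6.53 FPM in control livers at week 16 (0.68 ± 0.17, adjusted p = 0.0108). Etnk2, the liver ethanolamine kinase that makes the phosphoethanolamine which Etnppl breaks down, fell in the same weeks as Ggh rose, with 65.6 to 92.7 FPM in LIDPAD livers, against 121 to 141 FPM in control livers at week 16 (-0.72 ± 0.13, adjusted p = 0.00156). Gatm, which makes guanidinoacetate for the creatine step of Gamt, rose in those weeks as well, with 12.1 to 16.9 FPM in LIDPAD livers, against 6.52 to 8.65 FPM in control livers at week 48 (0.88 ± 0.15, adjusted p = 0.0169).

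On the path of choline to betaine, Chdh, which oxidises choline, was called in none of the 7 weeks, and its limma differences lay between 0.0091 and 0.52. Dmgdh, the neighbour of Bhmt2, fell at week 16 alone, with 195 to 277 FPM in LIDPAD livers, against 335 to 365 FPM in control livers (-0.67 ± 0.13, adjusted p = 0.00345). Of 6 clock genes, 5 or 6 of which were tested in each week, limma called 4 higher and 1 lower in LIDPAD livers at week 1, 3 higher and 1 lower at week 4, and 1 higher at week 8. It called 3 higher and 2 lower at week 12, 2 lower at week 16, 0 of 5 at week 32 (1 at an unadjusted p under 0.05) and 1 lower at week 48. Of all genes, 0.726, 0.121, 3.85 and 8.99% were called higher at weeks 1, 4, 8 and 12. Called lower were 1.27, 0.166, 6.25, 12 and 3.34% at weeks 1, 4, 12, 16 and 48.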
